A study of Mus musculus with 17 samples.

Results

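The peptidoglycan recognition protein genes of the mouse, Pglyrp1 to Pglyrp4, were followed in hippocampi of male C57BL/6J mice, some kept awake for 5 h by gentle handling and others left undisturbed in the home cage over the same time. Members were all probe sets whose platform annotation gave 1 gene symbol, that symbol being 1 of these 4. Only 2 of the 4 genes were matched in this way, Pglyrp1 and Pglyrp2, by 1 probe set each, out of 18193 genes and 45037 probe sets tested. Pglyrp3 and Pglyrp4 had no such probe set and were not analysed here. The family was selected on the measured difference of Pglyrp1, which was among the largest increases of this same comparison. The differences of the members between sleep-deprived and undisturbed mice are therefore given as a description, and nothing is read from a test of them.

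There were 8 sleep-deprived and 9 undisturbed animals, each on its own Affymetrix expression array. All 17 were housed singly, had been handled daily for 6 days beforehand and carried no engineered allele. Their age is 2 months in the sample labels and 2 to 4 months in the growth protocol. No group was handled for 5 h and left to sleep, so lost sleep and handling cannot be told apart. Values are normalised log2 signals, so a difference of 1 is a doubling, and every difference is given as sleep-deprived minus undisturbed. The array medians lay between 6.13 and 6.22, all 10 of 10 neuron markers had mean levels between 7.38 and 13.6, and precision is limited by how many arrays there are.

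Peptidoglycan recognition proteins are secreted proteins of innate immunity that bind peptidoglycan, the mesh of sugars and short peptides in bacterial cell walls. Pglyrp1 is stored in the granules of neutrophils and can kill bacteria, and a soluble complex of it with a heat shock protein has been described as cytotoxic. Pglyrp2 is a zinc amidase that cuts peptidoglycan and is made mainly by the liver, while Pglyrp3 and Pglyrp4 are made by epithelia such as skin. Fragments of peptidoglycan, the muramyl peptides, lengthen slow-wave sleep in rabbits, and a rise of the Pglyrp1 transcript in brain after sleep deprivation has been described in rats.

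The stretches of 250 bases just before the annotated starts of both measured genes are shown because 1 member separated the groups on the arrays and the other did not, and the promoter is where the genes themselves can be set side by side. Sequences are from RefSeq (build GRCm38.p6), read 5′ to 3′ on the strand of the gene. Capitals mark matches, on either strand, to the motifs searched.
Pglyrp1 chr7:18884440-18884689 (+): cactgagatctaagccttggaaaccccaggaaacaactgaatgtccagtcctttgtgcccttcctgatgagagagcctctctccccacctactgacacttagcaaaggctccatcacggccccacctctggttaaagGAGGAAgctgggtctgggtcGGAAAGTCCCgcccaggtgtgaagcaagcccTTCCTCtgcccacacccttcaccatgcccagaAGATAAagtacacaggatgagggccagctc
Pglyrp2 chr17:32420976-32421225 (-): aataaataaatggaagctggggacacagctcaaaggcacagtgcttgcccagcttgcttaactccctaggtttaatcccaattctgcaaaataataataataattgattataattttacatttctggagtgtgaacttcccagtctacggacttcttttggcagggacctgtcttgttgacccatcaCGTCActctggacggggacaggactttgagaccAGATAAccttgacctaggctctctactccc
The window of Pglyrp1 had a GC content of 55.6% and that of Pglyrp2 44%, against a median of 52% over 27025 promoter windows of the same length. In the Pglyrp1 window a match to the consensus of NF-kappaB, the transcription factor of inflammatory signalling, began at base -93 from the start, a motif found in 22.9% of all windows. GAGGAA, the core bound by the myeloid factor PU.1, began at -113 and, on the other strand, at -62, and 23.1% of all windows held it. The motif AGATAA, which factors of the GATA family bind and 10.3% of windows held, began at -30 in both genes. The Pglyrp2 window held TGACG, the half-site of the cAMP response element, on its other strand at -63 (17.9% of windows), and no NF-kappaB or PU.1 match. Neither window held AGAACA, the glucocorticoid receptor half-site, which 16.2% of windows hold. Absent from both as well were the AP-1 motif TGANTCA, held by 6.87% of windows, and the clock E-box CACGTG, held by 6.05%. The same was true of the D-box TTANGTAA, held by 2.11% of windows, and of the heat shock element pair GAANNTTC, held by 6.78%. The searched motifs did not overlap one another in these windows, and a match describes the letters and not the binding of a factor.

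Pglyrp1 was higher in the hippocampus of every sleep-deprived mouse than in any undisturbed mouse. Its probe set (Entrez gene 21946) read 6.30, 6.06, 6.40, 6.32, 6.18, 6.27, 6.50 and 6.23 in sleep-deprived replicates 1 to 8. In undisturbed replicates 1 to 9 it read 5.55, 5.80, 5.97, 5.48, 6.02, 5.58, 5.89, 5.94 and 5.87. The lowest sleep-deprived array, replicate 2, lay 0.037 above the highest undisturbed array, replicate 5, so the groups did not overlap but nearly touched. The mean was 6.28 ± 0.13 in sleep-deprived mice (SD, n = 8) and 5.79 ± 0.20 in undisturbed mice (SD, n = 9). The difference of 0.49 (SE 0.077) corresponds to 1.41-fold, with a 95% interval of 1.26-fold to 1.57-fold. It was the 17th largest increase among the 45037 probe sets, and the 37th largest difference in either direction. In bulk tissue, more cells that make a transcript and more of it per cell cannot be told apart.

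The undisturbed mice were the more spread of the groups in Pglyrp1. Replicates 1, 4 and 6 lay between 5.48 and 5.58, and the other 6 between 5.80 and 6.02, whereas the sleep-deprived values formed 1 run between 6.06 and 6.50. The SD within groups was 0.17 on pooling both, which exceeded that of 75.7% of the 6206 probe sets with a mean level within 0.5 of Pglyrp1. The median difference of those 6206 probe sets was 0.028, and whether brightness had a part in the 0.49 was not tested.

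Pglyrp2 showed no such separation. Its probe set (Entrez gene 57757) read 3.79, 3.90, 3.89, 3.91, 3.79, 4.12, 4.03 and 4.04 in sleep-deprived replicates 1 to 8. The undisturbed replicates 1 to 9 gave 4.09, 3.97, 3.93, 3.92, 4.13, 4.15, 4.01, 4.01 and 3.74. All 8 sleep-deprived values lay inside the undisturbed range, 3 above and 5 below the undisturbed mean. The means were 3.93 ± 0.12 in sleep-deprived mice (SD, n = 8) and 3.99 ± 0.12 in undisturbed mice (SD, n = 9). The difference was -0.061 (SE 0.059), with a 95% interval of -0.18 to 0.061. The pooled SD of 0.12 was ordinary for its brightness, above that of 50.1% of the 9178 probe sets within 0.5 of its level, whose median difference was 0.033.

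**Figure D1:**
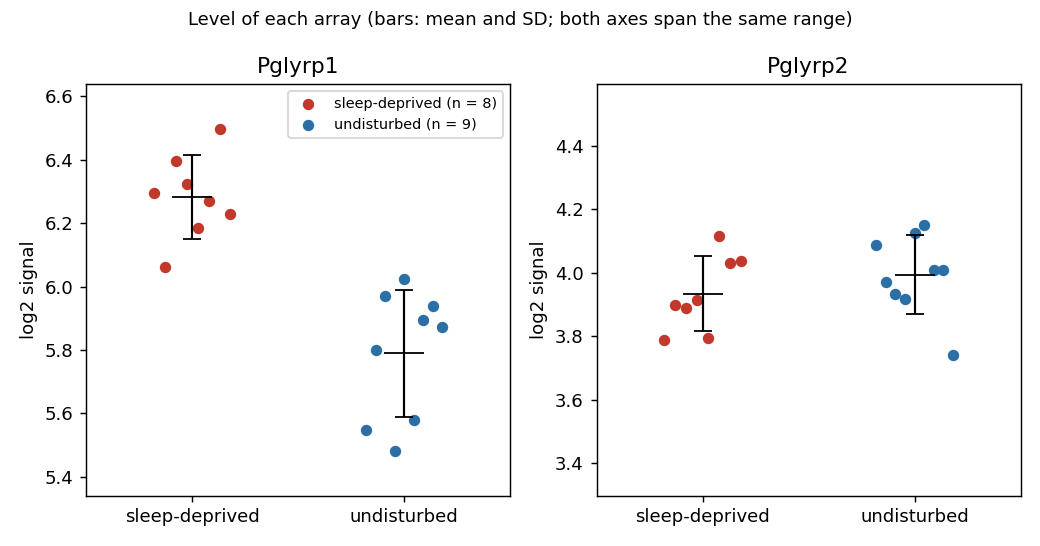
Log2 signal (vertical axes) of Pglyrp1 (left) and Pglyrp2 (right) in each of the 8 sleep-deprived and 9 undisturbed arrays, 1 point per animal, with bars for the mean and SD; both axes span the same range. The Pglyrp1 groups do not overlap (6.06 to 6.50 against 5.48 to 6.02), and the Pglyrp2 groups lie across the same range.

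In limma's fit over all probe sets, 1 of the 2 members passed an adjusted p of 0.05, Pglyrp1 as higher, where 0.584% of all probe sets passed as higher and 1.23% as lower. Groups that did not overlap with the sleep-deprived arrays on top were seen in 0.138% of all probe sets. Nothing is read from these counts for the members, since this comparison chose them.

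**Figure D2:**
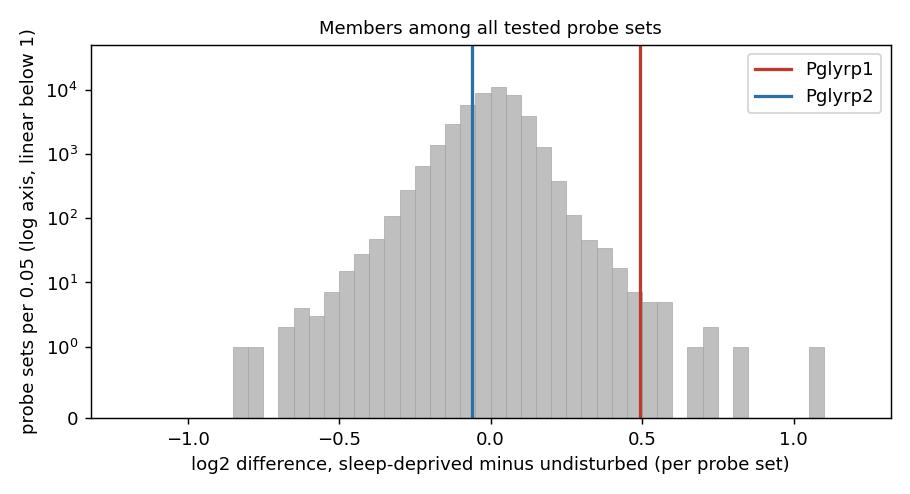
Number of tested probe sets (vertical axis, log scale, linear below 1) by log2 difference, sleep-deprived minus undisturbed (horizontal axis, bins of 0.05). The vertical lines place Pglyrp1 at 0.49, in the thin right tail, and Pglyrp2 at -0.061, in the bulk.

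How much of either transcript the tissue held was judged against probe sets of genes it is not known to use. The array has 44 probe sets for 39 olfactory receptor genes, and their mean levels served as a guide to the signal of near-silent genes. In sleep-deprived mice the mean of Pglyrp1, 6.28, lay above all 44, of which the highest was at 6.08. In undisturbed mice its mean of 5.79 lay above 95.5% of them, with 2 of the 44 higher. Pglyrp2 lay among the lowest of these probe sets, above 13.6% of them in sleep-deprived and 20.5% in undisturbed mice. Over all arrays the level of Pglyrp1 was at percentile 47.9 of the 45037 probe sets and that of Pglyrp2 at percentile 11.1. Probe sets bind with different strength, so these positions say where a signal lies and not how many transcripts there were, and dim probe sets show compressed differences after the normalisation used.

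**Figure D3:**
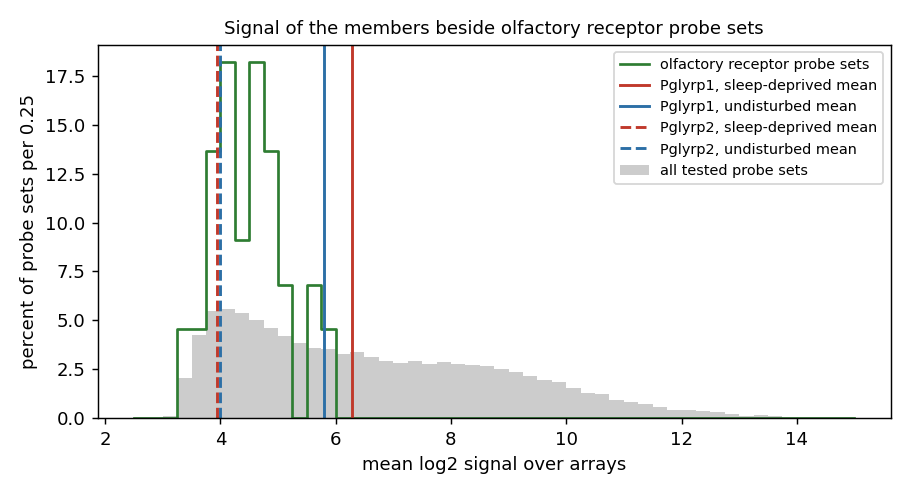
Share of probe sets (vertical axis, percent per bin of 0.25) by mean log2 signal (horizontal axis), for all 45037 tested probe sets (grey) and for 44 olfactory receptor probe sets (green line). Vertical lines mark the group means of Pglyrp1 (6.28 sleep-deprived, 5.79 undisturbed) at the upper end of the olfactory receptor signals and of Pglyrp2 (3.93 and 3.99) at their lower end.

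Other genes by which cells sense bacteria or handle their wall fragments showed no called change where they were measured. Of 16 measured, 0 rose and 0 fell in limma's test over 18193 genes, where 1.25% of all genes rose and 2.73% fell, and 0 had an unadjusted p under 0.05. Only 10 of the 16 lay above the 95th percentile of the olfactory receptor probe sets, 5.61. Tlr2 and Nlrp3 lay below it, at mean levels of 5.21 and 5.58. The median difference of the 16 was 0.036, against 0.0016 over all genes and 0.048 over the 44 olfactory receptor probe sets. Nod1, an intracellular receptor for peptidoglycan fragments, averaged 6.64 ± 0.15 in sleep-deprived mice (SD, n = 8) and 6.62 ± 0.13 in undisturbed mice (SD, n = 9; difference 0.022, limma adjusted p = 0.88). Tlr2, the surface receptor for bacterial lipoproteins, was at 0.050 (limma adjusted p = 0.79), and Cd14, a co-receptor for bacterial products, at 0.074 (limma adjusted p = 0.46). Nlrp3, an inflammasome sensor, was at 0.049 (limma adjusted p = 0.70). Lyz2, a lysozyme of macrophages that digests peptidoglycan, was at -0.031 (limma adjusted p = 0.91). Nagk, a sugar kinase that phosphorylates muramyl dipeptide, was at -0.078, below the undisturbed mean in 7 of 8 sleep-deprived mice (limma adjusted p = 0.30). Nod2 and Ripk2, the receptor for muramyl dipeptide and its kinase, were not analysed here.

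Genes of proteins reported to bind Pglyrp1, or belonging to the complexes of these, did not pass the test either. Of 10 measured, 0 rose and 0 fell in limma's test, and 0 had an unadjusted p under 0.05. Their median difference was 0.019. Trem1, a myeloid receptor for which Pglyrp1 is a ligand, averaged 4.92 ± 0.11 in sleep-deprived mice (SD, n = 8) and 4.83 ± 0.084 in undisturbed mice (SD, n = 9), and lay above 77.3% of the olfactory receptor probe sets. Its difference of 0.096 had a 95% interval of -0.0043 to 0.20 (limma adjusted p = 0.29). Tyrobp, the signalling adaptor of Trem1, was at -0.029 (limma adjusted p = 0.81). Tnfrsf1a, the tumour necrosis factor receptor that Pglyrp1 can bind, was at 0.12 (limma adjusted p = 0.30). Hspa1a and Hspa1b, the inducible heat shock proteins of the cytotoxic complex, were at 0.011 and -0.024 (limma adjusted p = 0.96 and 0.90). Hspbp1, a co-chaperone that binds the same heat shock protein, was at 0.0019, and S100a4, a calcium-binding partner of Pglyrp1, at 0.027 (limma adjusted p = 0.99 and 0.84). The mean level of S100a4, 5.42, lay below the 95th percentile of the olfactory receptor probe sets, 5.61.

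Of 20 measured genes that carry the signal from Nod1, Nod2 and Tlr2, 1 rose and 1 fell. Over all genes 1.25% rose and 2.73% fell. Nfkbia, the inhibitor of NF-kappaB and itself induced by it, ran from 11.0 through a median of 11.2 up to 11.5 in sleep-deprived mice. In undisturbed mice it ran from 10.8 through 11.0 up to 11.1, so the groups overlapped, with all 8 sleep-deprived arrays above the undisturbed mean. It rose by 0.28 (SE 0.072, limma adjusted p = 0.032), and without any 1 of 8 arrays it did not pass (adjusted p up to 0.067), nor in 2 of 12 other settings (adjusted p up to 0.17). Erbin, a scaffold protein that binds Nod2 and restrains its signal, had values of 8.38 to 8.98 (median 8.69) in sleep-deprived mice and 8.71 to 9.11 (median 9.02) in undisturbed mice. It fell by 0.26 (SE 0.070, limma adjusted p = 0.041), with 7 of 8 sleep-deprived arrays below the undisturbed mean, and without any 1 of 12 arrays it did not pass (adjusted p up to 0.084), nor in 7 of 12 other settings (adjusted p up to 0.26). The median difference of the 20 genes was 0.0021.

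Cytokines and acute phase genes, the usual outputs of these pathways, gave 0 higher and 0 lower of 20 measured in limma's test, with 3 higher and 1 lower at an unadjusted p under 0.05. Their median difference was 0.044, and only 9 of the 20 lay above the 95th percentile of the olfactory receptor probe sets, 5.61. The lowest difference was that of Ptgs2, at -0.29 (limma adjusted p = 0.098). The highest was that of Il10, at 0.16 (limma adjusted p = 0.086), at a level above 18.2% of the olfactory receptor probe sets. Il1b, the interleukin that promotes fever and sleep, averaged 5.72 ± 0.069 in sleep-deprived mice (SD, n = 8) and 5.65 ± 0.12 in undisturbed mice (SD, n = 9; difference 0.075, limma adjusted p = 0.44). Tnf was at -0.040 (limma adjusted p = 0.77). Lcn2, an iron-trapping protein of acute inflammation and of neutrophil granules, was at 0.052 (limma adjusted p = 0.74). The level of Lcn2 lay above only 22.7% of the olfactory receptor probe sets. Whether any of these differences is smaller than that of Pglyrp1 was not tested.

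**Figure D4:**
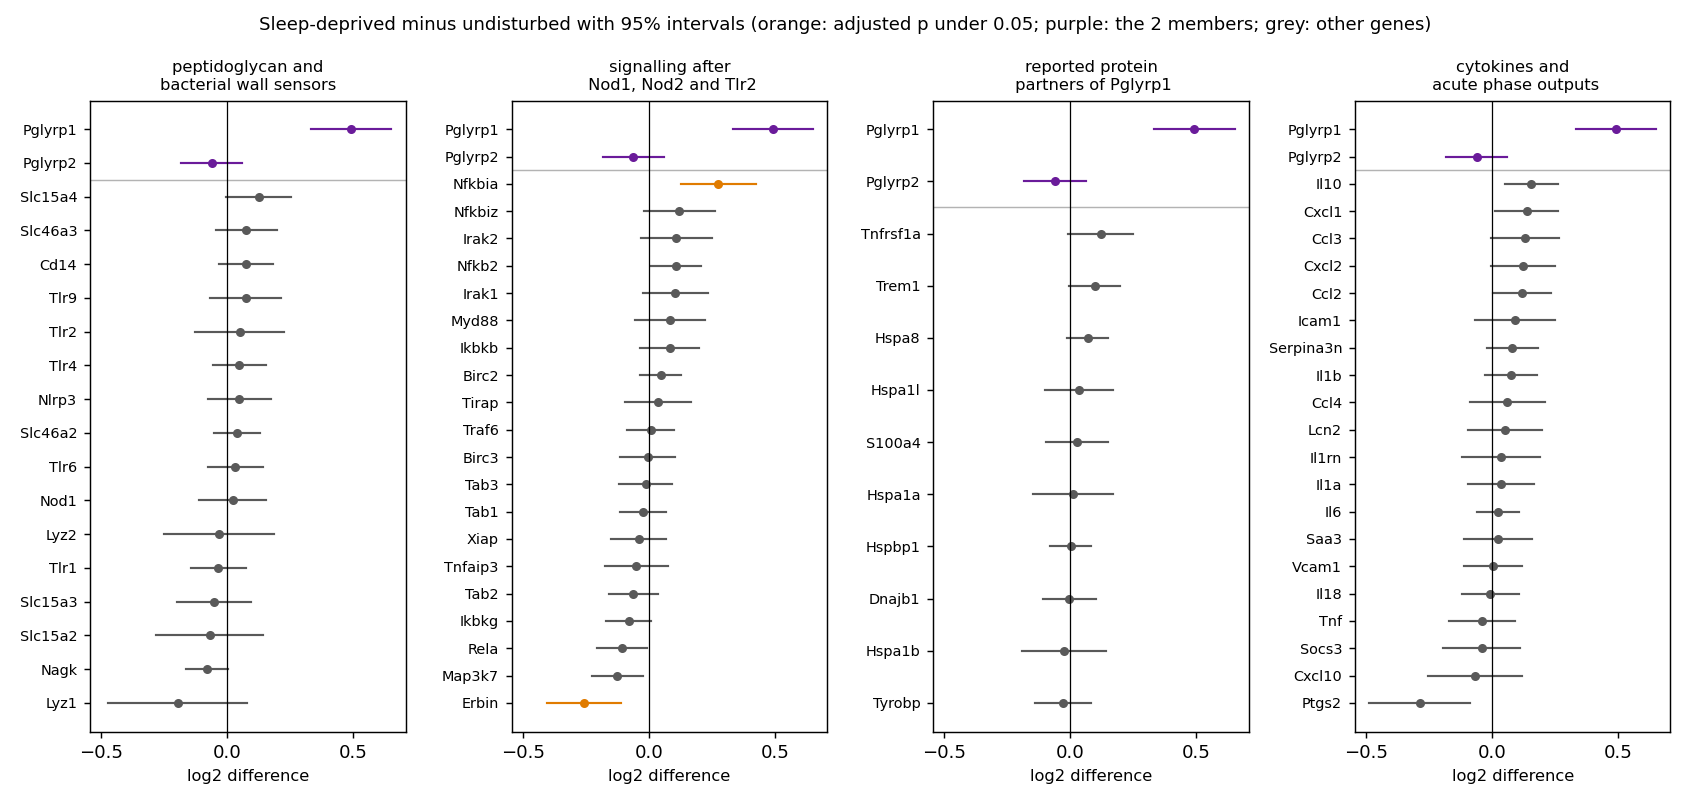
Log2 difference, sleep-deprived minus undisturbed (horizontal axes), with 95% intervals, of the measured genes of 4 lists (rows, 1 panel per list) below the 2 members, which are repeated at the top of each panel. Pglyrp1 is at 0.49 and the highest of the other genes is Nfkbia at 0.28; Nfkbia and Erbin (-0.26) are the 2 genes of the lists with an adjusted p under 0.05.

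Pglyrp1 is a neutrophil granule protein, and neutrophil markers were therefore set beside it. Of 18 measured neutrophil markers 0 rose and 0 fell in limma's test, 4 had an unadjusted p under 0.05, all higher, and 15 had positive differences, with a median of 0.085. Their mean level per array ranged from 4.87 to 5.07 in sleep-deprived mice and from 4.80 to 4.98 in undisturbed mice. Only 5 of the 18 lay above the 95th percentile of the olfactory receptor probe sets, 5.61. S100a8 and S100a9, the most abundant transcripts of mature neutrophils, lay above 40.9% and 65.9% of those probe sets, at differences of 0.086 and 0.091 (limma adjusted p = 0.42 and 0.40). The granule protein genes Ngp, Camp and Ltf were at 0.022, 0.14 and 0.12 (limma adjusted p = 0.90, 0.31 and 0.26). The olfactory receptor probe sets themselves leaned the same way, 37 of 44 being higher in sleep-deprived mice with a median difference of 0.048, although 0 passed the test and 5 had an unadjusted p under 0.05. With the mean neutrophil marker level as a covariate the difference of Pglyrp1 was 0.43.

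Red cell transcripts, a sign of retained blood, ranged in their mean from 5.66 to 5.85 in sleep-deprived and from 5.59 to 5.75 in undisturbed mice over 7 measured genes, of which 0 passed the test and 1 had an unadjusted p under 0.05. Hbb-b2, the brightest haemoglobin gene measured, was at 0.084 (limma adjusted p = 0.50), and the difference of Pglyrp1 with the erythroid level as a covariate was 0.44. Microglial markers, all 13 of which lay above the 95th percentile of the olfactory receptors, ranged in their mean from 8.40 to 8.54 in sleep-deprived and from 8.40 to 8.60 in undisturbed mice. None of the 13 passed limma's test, and 4 had an unadjusted p under 0.05, 2 higher and 2 lower. Choroid plexus markers varied widely in both groups, their mean running from 5.93 to 7.45 in sleep-deprived and from 5.91 to 7.22 in undisturbed mice. All 12 had positive differences (median 0.22) and 0 passed the test, with 1 at an unadjusted p under 0.05. Ttr, the transthyretin gene and the most abundant choroid plexus transcript, averaged 11.2 ± 2.9 in sleep-deprived mice (SD, n = 8) and 10.8 ± 2.2 in undisturbed mice (SD, n = 9). With the choroid plexus level as a covariate the difference of Pglyrp1 was 0.49.

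Markers of other cells gave 4 calls in all, where 1.25% of all genes rose and 2.73% fell. Gjb6, an astrocyte connexin, rose by 0.36 (limma adjusted p = 0.0082), 1 of 8 astrocyte genes, and did not pass in 2 of 12 other settings, those with the neutrophil and the erythroid level as covariate (adjusted p up to 0.058). Among 11 endothelial genes the transporter gene Slco1a4 fell by 0.32 (limma adjusted p = 0.0057) and the angiopoietin receptor gene Tek by 0.26 (limma adjusted p = 0.040). Ms4a2, a receptor chain of mast cells, rose by 0.19 at a level above only 31.8% of the olfactory receptors (limma adjusted p = 0.041), 1 of 8 mast cell genes. Tek did not pass without any 1 of 12 arrays and Ms4a2 without any 1 of 13 (adjusted p up to 0.080 and 0.083). In the other settings Tek did not pass in 5 of 12 (adjusted p up to 0.11) and Ms4a2 in 9 of 11, where with the mean of its probe sets the difference was 0.032 (adjusted p = 0.79). No call was made among 8 perivascular macrophage, 11 lymphocyte, 9 leptomeningeal, 7 oligodendrocyte and 10 neuron genes in limma's test, where 2, 1, 0, 0 and 1 had an unadjusted p under 0.05. All 11 lymphocyte genes had positive differences (median 0.091), as did 7 of the 8 perivascular macrophage genes (median 0.095), and all 10 neuron genes had negative ones (median -0.078). Only 4 of the 11 lymphocyte and 4 of the 8 perivascular macrophage genes lay above the 95th percentile of the olfactory receptor probe sets. Those probe sets leaned positive too, 37 of 44 with a median of 0.048.

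Within the groups, no relation of Pglyrp1 with the measures tested had an exact permutation p under 0.05. A family of 20 relations was computed, of each member with the neutrophil, erythroid and microglial levels and with an RNA quality measure, and of the members with each other, in sleep-deprived and undisturbed mice apart, and of each member with the choroid plexus level in 7 undisturbed mice. The largest for Pglyrp1 was that with the neutrophil level in undisturbed mice (r = 0.65, exact permutation p = 0.057, adjusted 0.51, rho = 0.67, exact permutation p = 0.059, adjusted 0.43, n = 9), and r was 0.67 without the 2 arrays farthest from the median. In sleep-deprived mice the same relation had r = -0.046 (exact permutation p = 0.91, adjusted 0.98) and rho = -0.19 (exact permutation p = 0.66, adjusted 0.89, n = 8), and r was 0.17 without the 2 farthest arrays. RNA quality was read from the manufacturer's controls for Gapdh and actin, as their 3′ signal less their 5′ signal, which is larger in degraded RNA. Pglyrp1 tended down with it in undisturbed mice (r = -0.64, exact permutation p = 0.063, adjusted 0.51, rho = -0.58, exact permutation p = 0.11, adjusted 0.43, n = 9), and r was -0.33 without the 2 farthest arrays. The sleep-deprived mice gave r = -0.43 (exact permutation p = 0.29, adjusted 0.83) and rho = -0.67 (exact permutation p = 0.083, adjusted 0.43, n = 8), with r = -0.44 without the 2 farthest arrays. With this measure as a covariate the difference of Pglyrp1 was 0.50. No relation between Pglyrp1 and Pglyrp2 was detected, at r = 0.24 in sleep-deprived mice (exact permutation p = 0.57, adjusted 0.89, rho = 0.071, exact permutation p = 0.88, adjusted 0.98, n = 8) and r = -0.15 in undisturbed mice (exact permutation p = 0.71, adjusted 0.89, rho = 0.12, exact permutation p = 0.78, adjusted 0.91, n = 9). Choroid plexus levels were split by their largest gap, seen in the data, into 5 and 3 sleep-deprived arrays, too few for an r, and into 7 undisturbed arrays (5.91 to 6.40) and 2 above them. Within those 7, Pglyrp1 had r = -0.018 (exact permutation p = 0.96, adjusted 0.98) and rho = 0.21 (exact permutation p = 0.66, adjusted 0.89), and r was -0.42 without the 2 farthest arrays. Pglyrp2 had r = 0.73 there (exact permutation p = 0.076, adjusted 0.51) and rho = 0.71 (exact permutation p = 0.088, adjusted 0.43), with r = 0.72 without the 2 farthest arrays.

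**Figure D5:**
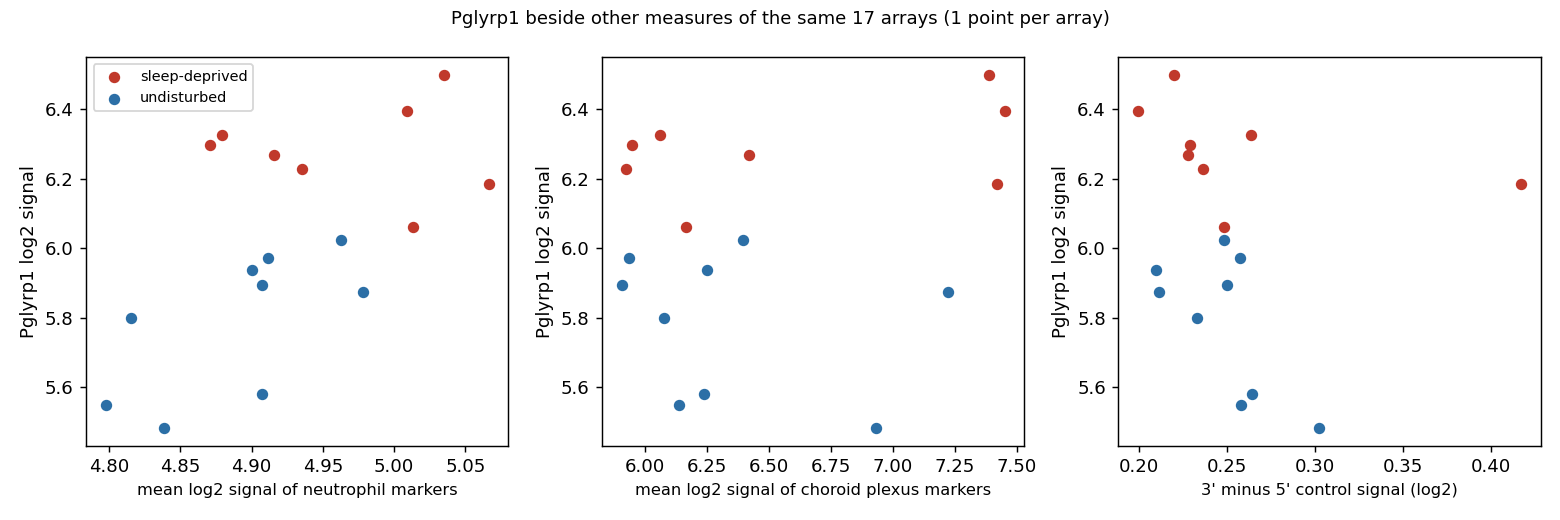
Pglyrp1 log2 signal (vertical axes) against the mean log2 signal of neutrophil markers (left), of choroid plexus markers (middle) and the 3′ minus 5′ control signal (right), 1 point for each of the 17 arrays. The groups do not overlap on the vertical axis (6.06 to 6.50 sleep-deprived, 5.48 to 6.02 undisturbed), whatever is plotted on the horizontal one, and they overlap on all 3 horizontal axes.

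The genes most like Pglyrp1 were sought with the group means removed, so that the comparison itself played no part, by Pearson's r over 17 arrays. Among 18192 genes the 5th and 95th percentiles of r were -0.42 and 0.45, and the highest was 0.82. Rab5b, a small GTPase of early endosomes (r = 0.82), and Ppp1r1c, a phosphatase inhibitor gene (r = 0.82), came first, and neither differed between the groups by more than 0.013. Scgb1a1, a secretoglobin of airway epithelium (r = 0.78), Plac8l1 (r = 0.75), Slfnl1 (r = 0.74) and Chn1, a Rac-regulating protein of neurons (r = 0.73), followed. The lowest were Pirt (r = -0.77), Mpp4 (r = -0.73) and Arhgap24 (r = -0.72). Most of these genes were dim, below the 95th percentile of the olfactory receptor probe sets, 5.61. Ppp1r1c, Scgb1a1, Plac8l1 and Slfnl1 had mean levels of 5.24, 3.88, 4.71 and 5.58, and Pirt and Mpp4 of 5.54 and 4.06. Rab5b, Chn1 and Arhgap24 lay above it, at 7.29, 13.2 and 6.61. Within the groups the r of Rab5b was 0.74 in sleep-deprived and 0.91 in undisturbed mice, that of Scgb1a1 0.37 and 0.94, that of Slfnl1 0.21 and 0.91 and that of Pirt -0.19 and -0.94, and all 9 named genes had the larger r in size in undisturbed mice, where Pglyrp1 was more spread. These are the extremes of many values over few arrays that share hybridisation and normalisation, and 3 of the 6 highest were also among the 6 highest by Spearman's rho. Pglyrp2 ranked 9579th of the 18192, at r = -0.012.

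None of the measured genes that neighbour the family in the genome passed the same test, and many of them were dim. Pglyrp1 lies on chromosome 7 between Mill2, not analysed here, and Ccdc61, a centriole gene (difference 0.036, limma adjusted p = 0.71). Nova2, the neuronal splicing factor gene beyond Ccdc61, was at -0.054 (limma adjusted p = 0.71), and the pregnancy-specific glycoprotein genes Psg17 and Psg19 were at 0.045 and 0.0046. Around Pglyrp2 on chromosome 17, 5 of 6 neighbours were measured, from -0.15 for Akap8l, which binds RNA and a kinase anchor, to 0.049 for Cyp4f39, with Wiz, Rasal3 and Cyp4f16 in between. Pglyrp3 and Pglyrp4 lie on chromosome 3 in the cluster of genes of the outer skin. Their measured neighbours were S100a8, S100a9, S100a7l2 (-0.027), Prr9 (0.054), Lelp1 (0.053) and Lor, the gene of the skin envelope protein loricrin (-0.23, limma adjusted p = 0.14). In all, 0 of 15 measured neighbours passed limma's test and 2, Akap8l and Lor, had an unadjusted p under 0.05.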

How the data were processed

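Hippocampal RNA of 17 mice was measured on Affymetrix arrays, 1 animal per array, with groups taken from the sample titles (8 sleep-deprived, 9 undisturbed). The deposited values are log2 signals, 1 per probe set and array. RMA and the affy package made them, per the submitters' processing notes. Versions, step order and filters are not given in the sources used, and the log base was inferred from values of 2.90 to 14.8. RMA equalises the distributions of arrays, which hides any shift common to most genes. Of 45101 probe sets 64 manufacturer controls were left out of tests. Of the other 45037, 34945 had 1 gene symbol in the platform annotation, 932 several and 9160 none. No 2 arrays held the same values (highest correlation 0.998), and 0 columns were left unused.

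The comparison was fitted in limma 3.58.1 (R 4.3.3) with lmFit and eBayes on the deposited values, over all probe sets and over 18193 genes through the brightest probe set of each. The p-values were adjusted by Benjamini-Hochberg with a threshold of 0.05, and all adjusted p-values of genes are from limma. The fit was tested on simulated data. Exact permutation tests (two-sided, all orders of the arrays of a group) were run in Python 3.11.15 with NumPy 2.4.6 and adjusted over the 20 relations. Promoters were searched on both strands. No batch or scan date was used. The members, the 4 pathway and 12 marker lists and the rule for named genes were chosen with earlier results of these data known. The rule took every member, called genes of each list, a set fixed by name, the 3 protein-coding genes on either side of each member (order from assembly GRCm38.p6) and the genes of highest and lowest r with Pglyrp1. Ptgs2 and Il10 were named outside the rule, as the lowest and highest differences of the cytokine list. Of the 12 marker and 4 pathway lists' 208 different genes, 187 were measured. The alternatives were other normalisations, variance models, array weights, a filter at a mean level of 6, marker and RNA quality covariates, the mean of a gene's probe sets, a replicate block and each array left out.

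The replicate numbers run alike in both groups. Deviations from group means of same-numbered arrays correlated between -0.16 and 0.39 over genes, 3 of 8 above 0.1, so the numbers were not taken to pair the animals.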

Additional observations from a re-analysis of the deposited data

Results flagged for a closer look

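Values of 1 array stood apart from the rest of its group in 8 of 140 checks of the named genes, marker levels and RNA quality in the separate groups, by Dixon's test of the gap to the nearest array. Chance gives about 1 in 20, so the count is close to what chance alone gives. Neither Pglyrp1 nor Pglyrp2 was among them.

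In sleep-deprived replicate 4 Nod1 was low at 6.30 (nearest array 6.62) and Trem1 at 4.68 (nearest 4.90). Without that array the sleep-deprived means were 6.69 for Nod1 and 4.96 for Trem1, against 6.62 and 4.83 in undisturbed mice. S100a9 was low in undisturbed replicate 5 at 4.48 (nearest 4.62), and Hbb-b2 high in sleep-deprived replicate 6 at 6.03 (nearest 5.71). Among neighbours of the family, Ccdc61 was low in sleep-deprived replicate 1 at 6.88, Nova2 low in sleep-deprived replicate 5 at 9.76 and Wiz high in undisturbed replicate 2 at 7.70. The 3′ minus 5′ control signal of sleep-deprived replicate 5 was 0.417 (nearest 0.264), the largest of the 17 arrays, and Pglyrp1 read 6.18 there, the second lowest sleep-deprived value.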

How the results depend on the processing

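The difference of Pglyrp1 stayed positive and moved by less than its SD within groups in all 11 other settings (0.43 with the neutrophil covariate to 0.50 with the replicate block) and without any 1 array (0.45 to 0.52). That of Pglyrp2 stayed negative in all 10 settings that gave it a value (-0.092 to -0.035) and without any 1 array (-0.092 to -0.040). The filter at a mean level of 6 left Pglyrp2 out, and the mean of probe sets does not apply to genes with 1. Neither this filter nor the other variance model can change the difference of Pglyrp1. The replicate block gave it the same value as leaving out undisturbed replicate 9 (0.50). Since the family was selected on this difference, its range is given as a description. Without any 1 array 563 to 889 probe sets and 481 to 817 genes were called, against 816 and 723 with all; genes were fewest without undisturbed replicate 4. Probe sets called were 1332 above a mean level of 6, where fewer were tested, 446 with the neutrophil and 284 with the erythroid covariate, and genes called were 364 and 215 with these covariates; the cause was not tested. Of the genes that carry the signal from Nod1, Nod2 and Tlr2, 2 were called as reported, 1 after quantile normalization, cyclic loess, array weights, the choroid plexus or the neutrophil covariate or the mean of probe sets, 0 with the erythroid covariate, and 0 to 2 without any 1 array. Cytokines gave 1 call with the mean of probe sets and 0 to 1 without any 1 array. The sensors and the partners of Pglyrp1 with their complexes gave 0 calls in every setting, array left out or not. With the replicate block 959 probe sets and 913 genes were called, and each sleep-deprived array correlated best with its own number in 1 of 8 cases. Under the block Akap8l passed (adjusted p = 0.040). No direction of a called named gene was reversed. Dim signal limits Pglyrp2, Trem1, S100a4 and the neutrophil markers. The same holds for those neighbours of the family, and those genes most like or unlike Pglyrp1, that lay below 5.61. It limits other lists in part, as their counts above the 95th percentile of the olfactory receptor probe sets show. These were 2 of 7 erythroid, 4 of 11 lymphocyte, 3 of 8 mast cell and 4 of 8 perivascular macrophage genes. They were also 7 of 12 choroid plexus, 9 of 20 cytokine and 10 of 16 sensor genes.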
